A study of Mus musculus with 10 samples.

Results

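Basement membrane genes and the collagens other than the main interstitial fibrillar ones were followed in hearts of mice with and without a knockdown of Sod2 before birth (iSOD2 and control). They were taken from the deposited count table by symbol: every gene named as a collagen chain or as a laminin alpha, beta or gamma chain, together with Nid1, Nid2, Hspg2 and Agrn, and without Col1a1, Col1a2 and Col3a1. This rule found 56 of the 24537 genes in the table. It used no measured value, but it was chosen with earlier results of these data known. Of the 56 members, 53 had at least 10 counts summed over the libraries and were tested, and Col2a1, Col6a4 and Col9a1 did not reach that minimum.

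A basement membrane is a thin sheet of extracellular matrix that lies against muscle cells, endothelium and nerve. Laminin trimers, each of an alpha, a beta and a gamma chain, polymerize on the cell surface through integrins and dystroglycan, and trimers of type IV collagen form a covalent network beside them. Nidogens and the proteoglycan perlecan join both networks, and in the heart this sheet wraps each cardiomyocyte and capillary. Collagens VI, XV and XVIII tie it to the fibrils outside, and type V collagen is built into those fibrils with type I.

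Hearts were taken at 6 weeks of age from 5 control mice (Rosa26-rtTA2+/-;TRE-SOD2-shRNA-/-, numbered 1, 2, 3, 4 and 6) and 5 iSOD2 mice (Rosa26-rtTA2+/-;TRE-SOD2-shRNA+/-, numbered 5, 7, 8, 9 and 10). All 10 carried the transactivator rtTA2, which the ubiquitous Rosa26 promoter drives, and all were exposed to doxycycline in utero through the chow of wild-type C57BL/6J dams, so the hairpin against Sod2 was switched on before birth only and in no particular cell type. The hairpin sits in the Col1a1 locus, so every iSOD2 mouse had 1 modified Col1a1 allele and no control had any. The controls were 3 males and 2 females and the iSOD2 mice 2 males and 3 females. The labels give 2 litters, called A and B here, with 2 mice of each genotype in litter A and 3 of each in litter B. RNA came from a transverse section of the whole heart, so fewer cells of a type and less RNA per cell cannot be told apart.

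Libraries held 16448090.5 to 24263085.5 estimated counts over genes. No library was a copy of another, and Sod2 itself had a log2 fold change (log2FC, iSOD2 against control) of 0.03 (DESeq2 adjusted p 0.806) at this age, with the hairpin off since birth. Genes that define ventricular cardiomyocytes, fibroblasts and endothelium were present in every heart. Hepatocyte genes, which a heart should lack, were also found in every library, with a summed level of 589 to 6869 normalized counts per kb in controls and 3633 to 13346 in iSOD2 hearts, and their part in the results below was not tested.

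Counts of all members together made up 0.540% to 0.781% of a library, on average 0.693% ± 0.0632 for controls against 0.589% ± 0.0436 for iSOD2 hearts (SD, n = 5 each), and the groups overlapped between 0.637% and 0.647%. In litter A the control and iSOD2 means were 0.638% and 0.548%, in litter B 0.729% and 0.616%.

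It was first asked which chains these hearts express, on a scale of normalized counts per kb of exon, since longer transcripts give more counts. Col4a1, which encodes the main chain of the common type IV trimer, had the highest level at 2843 ± 470.0, followed by Lamb2 at 2186 ± 171 and Col4a2 at 1931 ± 309 (SD, n = 10). Col4a1 lay above Lamb2 in 10 of 10 hearts and Lamb2 above Col4a2 in 8. Lamc1 (1288), Lama2 (1227), Hspg2 (1176) and Col6a1 (1164) came next, and no neighbours among these differed in the same direction in more than 6 of 10 hearts. Lama4 (949), Nid1 (899), Col6a2 (877), Col15a1 (827) and Lamb1 (818) followed, and below them the level fell 1.97-fold to Lama5 (414).

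**Figure D1:**
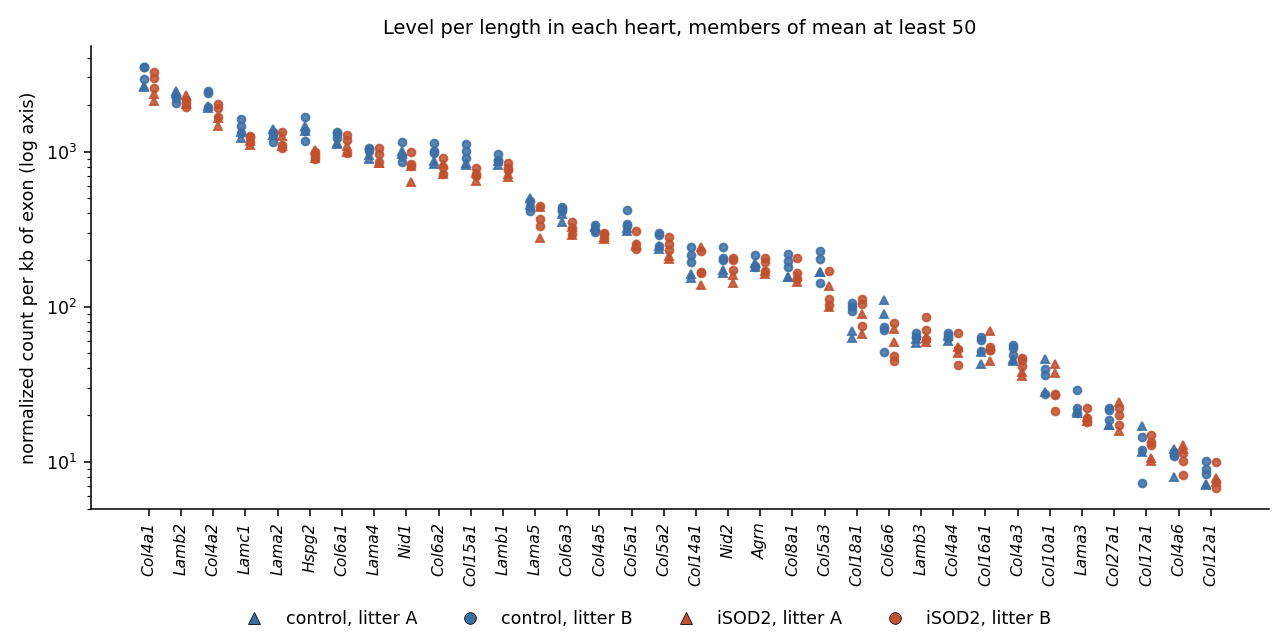
Level of 34 of the 35 members that averaged at least 50 normalized counts, in normalized counts per kb of exon on a log axis, with a point for each heart (blue control, red iSOD2, triangles litter A, circles litter B). Levels ran from 2843 for Col4a1 down to 8.14 for Col12a1, and neighbouring genes often overlapped between hearts.

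Within each family a few chains made up most of the level per kb. Among laminin alpha chains Lama2, the chain of striated muscle whose loss causes a muscular dystrophy, had 47.0% ± 1.85, Lama4 36.4% ± 2.46 and Lama5 15.8% ± 2.04, both of the latter chains of vessel walls (SD, n = 10). Lama3 had 0.811% and Lama1, an embryonic chain, 0.0129%. Lamb2 had 71.2% ± 2.10 of the beta chains and Lamb1 26.7% ± 2.04, and Lamc1 had 97.8% ± 0.414 of the gamma chains. Of type IV collagen, Col4a1 had 54.7% ± 1.60 and Col4a2 37.2% ± 1.19. Col4a5 had 5.92% ± 0.730, above Col4a3 and Col4a4, its partners in the trimer known from the kidney glomerulus, at 0.883% and 1.14%. Col6a1, Col6a2 and Col6a3, the partner chains of a type VI molecule, had 47.2%, 35.4% and 14.6%. With the longest GENCODE transcript as the length these became 50.4%, 29.6% and 17.3%, in the same order. That length gave Col4a4 0.887% and Col4a3 0.893%, so the order of this pair rests on the transcript chosen.

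Several members lie side by side in the genome. Col4a1 and Col4a2 (chromosome 8, 11312805 to 11449287, + strand) start head to head on opposite strands, and their first exons overlap by 22 bases. Col4a4 and Col4a3 start 71 bases apart on chromosome 1, and Col4a6 and Col4a5 start 1342 bases apart on the X chromosome. Promoter windows, the 250 bases before the counted start, were found in the RefSeq table for GRCm38.p6 (the mm10 build of the count table) for 40 of the 56 members. The letters GGGCGG, the core of the GC box, stood on either strand in 23 of these 40 windows (57.5%), against 32.7% of the 32851 windows in the table. CCAAT stood in 12 (30% against 33.8%) and TATAAA in 4 (10% against 12.4%). The median GC content was 60.4% in the members' windows and 52.4% in all. Shown here are the windows of the 3 members with the lowest adjusted p in the genotype comparison, in the direction of transcription, and the bases shared by both type IV genes, on the + strand. Capitals mark GGGCGG or its reverse complement.
Hspg2, chr4:137468553-137468802, + strand: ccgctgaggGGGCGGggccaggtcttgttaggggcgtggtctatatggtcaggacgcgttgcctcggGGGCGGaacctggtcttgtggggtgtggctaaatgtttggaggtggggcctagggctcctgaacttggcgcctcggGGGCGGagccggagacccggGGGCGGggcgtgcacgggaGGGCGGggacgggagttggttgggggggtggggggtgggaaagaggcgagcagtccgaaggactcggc
Col6a3, chr1:90843972-90844221, − strand: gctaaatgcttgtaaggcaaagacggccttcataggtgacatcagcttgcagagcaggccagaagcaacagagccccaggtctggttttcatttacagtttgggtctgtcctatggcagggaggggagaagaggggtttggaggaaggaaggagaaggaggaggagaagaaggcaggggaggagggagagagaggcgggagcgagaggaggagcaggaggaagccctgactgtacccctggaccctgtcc
Col15a1, chr4:47207762-47208011, + strand: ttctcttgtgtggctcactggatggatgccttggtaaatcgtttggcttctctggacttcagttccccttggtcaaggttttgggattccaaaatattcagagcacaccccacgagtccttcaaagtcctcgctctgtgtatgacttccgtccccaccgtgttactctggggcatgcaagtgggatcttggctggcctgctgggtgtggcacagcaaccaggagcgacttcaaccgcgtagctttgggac
Col4a2 and Col4a1, chr8:11312805-11312826: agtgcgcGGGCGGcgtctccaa
The Hspg2 window held 5 matches, a number that 1.93% of all windows reached. Col6a3 and Col15a1 held 0. Col5a1 and Col5a3 held 2 each, and Col6a2 held 3, so the 6 members called below ranged from 0 to 5. Agrn, which was not called, held 12.

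It was next asked whether these genes differed between the genotypes at 6 weeks, with the hairpin off since birth. Perlecan and chains of collagens V, VI and XV were lower in iSOD2 hearts, at 0.679 to 0.822 times the control mean, and no member passed the test as higher. DESeq2 called 6 members lower, Hspg2, Col5a3, Col5a1, Col15a1, Col6a3 and Col6a2, and 0 higher, where a call needs both an adjusted p no higher than 0.05, corrected across the whole table, and a log2FC beyond 0.25 in either direction. Over all 9479 genes with an adjusted p, 1.70% were called lower and 1.27% higher, and 29 of the members had an adjusted p. Col4a5, Lamb1 and Lamc1 also reached an adjusted p of 0.05 with smaller fold changes, which made 9 of 29 lower at any fold, against 3.05% of genes. At an unadjusted p under 0.05, 15 of 53 were lower and 0 higher, against 5.93% of genes lower.

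Most of the uncalled members were below 0 as well. Of the 35 members that averaged at least 50 normalized counts, 29 had a log2FC below 0 and 6 above, with a median of −0.17. Of the 12151 genes with that mean, 51.5% were below 0 and the median was −0.00. The median over all 53 members tested was −0.16. Under TMM scaling the count of members below 0 was again 29, and under upper-quartile scaling 28. In litter A alone 26 of the 35 were lower (median −0.17) and in litter B alone 33 (median −0.18). In males it was 28 (median −0.17) and in females 32 (median −0.21). Of all genes with that mean, 51.5%, 50.9%, 50.8% and 51.3% were lower in litter A, litter B, males and females. These are parts of the same mice, so they are no separate evidence.

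**Figure D2:**
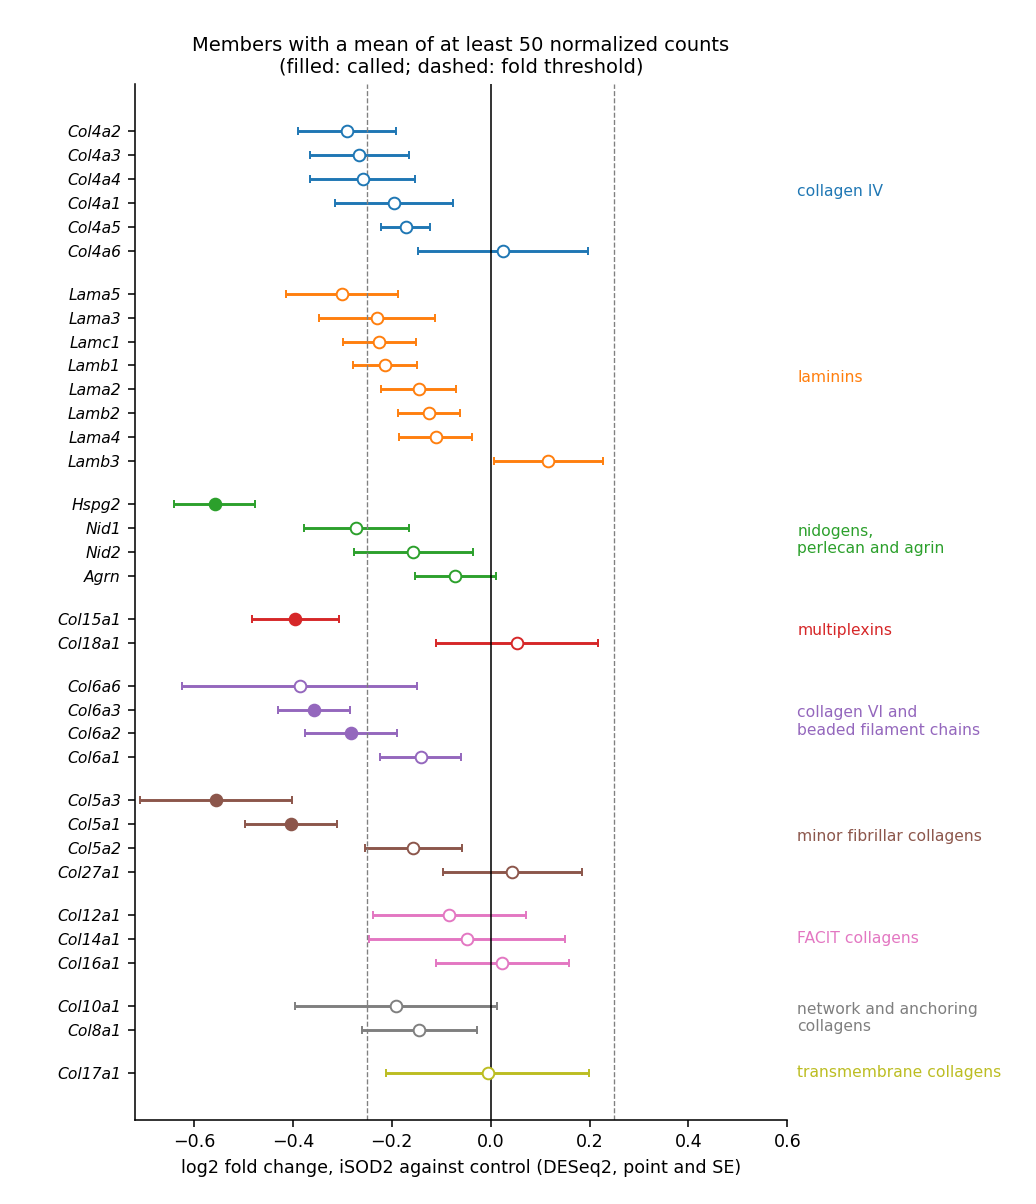
Log2FC of iSOD2 against control hearts (DESeq2, horizontal axis, whiskers 1 SE) for 34 of the 35 members that averaged at least 50 normalized counts, grouped by class, with filled points for called genes and dashed lines at the fold threshold of 0.25. Points lie left of 0 for 29 members, and the 6 filled points are Hspg2, Col15a1, Col6a3, Col6a2, Col5a3 and Col5a1.

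Hspg2 (perlecan, NM_008305, chromosome 4, 137468803 to 137570630), the large heparan sulfate proteoglycan of basement membranes, changed most clearly. It had 19157, 20441, 23459.7, 16569 and 19002 normalized counts in control mice 1, 2, 3, 4 and 6, and 14082, 14405, 12712, 13094 and 12670.3 in iSOD2 mice 5, 7, 8, 9 and 10. Every iSOD2 heart lay below every control, and the iSOD2 hearts varied less. The means were 19726 ± 2513 and 13393 ± 802 (SD, n = 5 each), a log2FC of −0.56 (SE 0.08, DESeq2 adjusted p 1.13e-07). It was lower by similar amounts in litter A (−0.54) and litter B (−0.57).

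The other members of this class shifted less. Nid1, the main nidogen with 82.7% of the nidogen level per kb, had 5769.9, 6088, 6980.2, 5599 and 5170.4 normalized counts in controls and 4996, 4852, 3831, 5977 and 4871 in iSOD2 mice, a log2FC of −0.27 (DESeq2 adjusted p 0.103). The lowest heart was iSOD2 8, and the groups overlapped. Nid2 (−0.16, adjusted p 0.496) and Agrn (−0.07, adjusted p 0.676), a proteoglycan best known from the neuromuscular junction, did not pass the test either.

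The multiplexins, Col15a1 and Col18a1, carry the endostatin-like domains and lie at the outer face of basement membranes. Col15a1 (NM_009928, chromosome 4, 47208012 to 47313165) had 4428, 4319, 5917, 4816 and 5324 normalized counts in controls and 3669.9, 3419, 3832, 4159.8 and 3776 in iSOD2 mice. All iSOD2 hearts again lay below all controls, and the highest value was that of control 3. The means were 4961 ± 664 and 3771 ± 269 (SD, n = 5 each), with a log2FC of −0.40 (SE 0.09, DESeq2 adjusted p 0.000909). Its relative Col18a1 did not follow, with 481 ± 106 and 499 ± 106 normalized counts and a log2FC of 0.05 (SE 0.16, adjusted p 0.894).

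**Figure D3:**
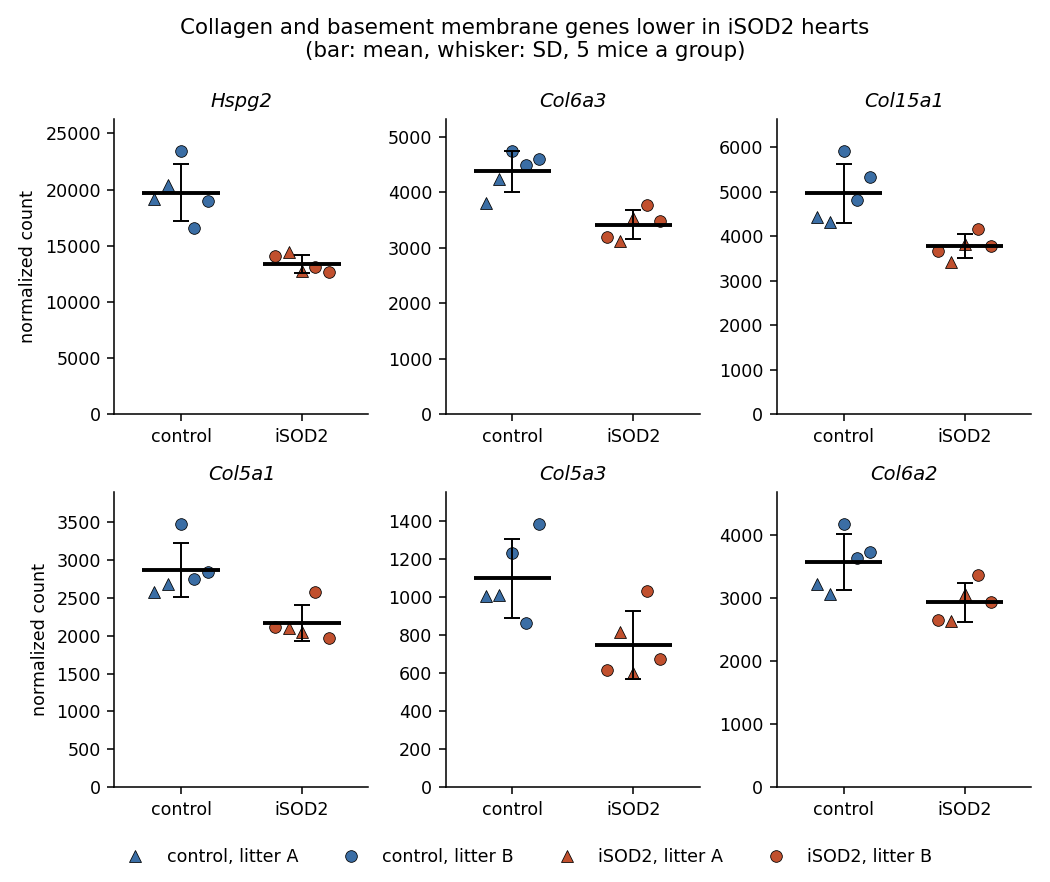
Normalized counts (vertical axes from 0) of the 6 members called lower in iSOD2 hearts, with a point for each mouse, a bar for the mean and whiskers for the SD of 5 mice a group. For Hspg2, Col6a3 and Col15a1 every iSOD2 point lies below every control point, and for Col5a1, Col5a3 and Col6a2 the groups overlap.

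Type VI collagen forms the beaded microfilaments that link basement membranes to the surrounding matrix. Col6a3 (NM_001243008, chromosome 1, 90766860 to 90843971), the largest chain, had 3813, 4245, 4751, 4498 and 4593 normalized counts in controls and 3191, 3123, 3529, 3778 and 3474 in iSOD2 mice. The lowest control was mouse 1 and the highest iSOD2 heart mouse 9, and there was no overlap. The means were 4379.8 ± 366 and 3419 ± 266 (SD, n = 5 each), a log2FC of −0.36 (SE 0.07, DESeq2 adjusted p 0.00027). Col6a2 (NM_146007, chromosome 10, 76595756 to 76623404) fell from 3563 ± 443 to 2927 ± 307 (−0.28, SE 0.09, DESeq2 adjusted p 0.0418), with 3216, 3058, 4175, 3633 and 3732 in controls and 2644, 2636, 3054, 3369 and 2932 in iSOD2 mice. Here iSOD2 9 alone reached into the range of the controls. The call was kept without control 1, control 2 or iSOD2 9 and lost without any other single mouse (adjusted p 0.0659 to 0.231). It was also lost with sex as a covariate (adjusted p 0.0556), under upper-quartile scaling (0.052) and without independent filtering (0.0716).

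The third partner, Col6a1, had 4809 ± 364 and 4359 ± 506 normalized counts and did not pass (−0.14, adjusted p 0.328). Col6a6, an alternative to Col6a3 in the trimer, had 632, 779, 519, 361 and 502 in controls and 341, 508, 416, 556 and 317 in iSOD2 mice. Its spread between mice was wide, and its log2FC of −0.39 (SE 0.24) did not pass (adjusted p 0.367). All 5 chains of this class that were tested were below 0, with a median of −0.36, and 2 were called.

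Type V collagen sets the width of collagen fibrils. Col5a1 (NM_015734, chromosome 2, 27886425 to 28039510) had 2575, 2683, 3478, 2744 and 2835 normalized counts in controls and 2114, 2107, 2047, 2579 and 1970.0 in iSOD2 mice, with the highest value of each group in a litter B male, control 3 and iSOD2 9. The means were 2863 ± 357 and 2163 ± 239 (SD, n = 5 each), a log2FC of −0.40 (SE 0.09, DESeq2 adjusted p 0.0016). Only iSOD2 9 reached into the range of the controls, above control 1 alone.

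Col5a3 (NM_001317388, chromosome 9, 20770057 to 20815067), a chain of fewer tissues, had 1006, 1015, 1234, 863 and 1388 in controls and 618, 818, 603, 1033 and 675 in iSOD2 mice. Its fold change was among the largest of the members (−0.56, SE 0.15, DESeq2 adjusted p 0.0112), but so was its spread, and iSOD2 9 lay above 3 of the controls. The call was lost with litter as a covariate (adjusted p 0.0597) and when control 2, 3 or 6 or iSOD2 8 or 10 was left out (adjusted p 0.0501 to 0.156). Col5a2, the partner of Col5a1 in most type V trimers, had 1727 ± 188 and 1549 ± 211 normalized counts and did not pass (−0.16, adjusted p 0.387). Col27a1, another minor fibrillar chain, had a log2FC of 0.04 with no adjusted p.

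Among the 6 type IV chains, 5 of which had an adjusted p, none was called in the main fit, and 5 had a log2FC below 0. With litter as a covariate Col4a2 and Col4a3 were called, in a fit that called 326 of all genes. Col4a1 had 17294, 17077, 22862, 19309.5 and 22996 normalized counts in controls and 16745, 15377, 13968, 21312 and 19568 in iSOD2 mice. The groups overlapped in iSOD2 mice 9 and 10, and the log2FC was −0.19 (SE 0.12, DESeq2 adjusted p 0.365). Col4a2 had 12514, 12203, 15143, 12357 and 15782 and 10652, 10556, 9329, 12935 and 12129, and came close to the threshold (−0.29, SE 0.10, adjusted p 0.054).

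Col4a5 had 2093, 2137, 2152, 2008 and 1945 in controls and 1772, 1762, 1808, 1898 and 1930.4 in iSOD2 mice. It varied least between controls of the 35 members, with a coefficient of variation of 4.27%, and the genotypes did not overlap. Its log2FC of −0.17 (SE 0.05, adjusted p 0.0166) was below the fold threshold. The head-to-head pair Col4a3 (−0.27, adjusted p 0.0885) and Col4a4 (−0.26, adjusted p 0.125) had near-equal fold changes between genotypes. Between litters, B against A, Col4a3 had 0.26 and Col4a4 0.05. The head-to-head pair Col4a6 and Col4a5 had 0.03 and −0.17 between genotypes. In all, 4 of 29 members had iSOD2 hearts wholly below the controls (Hspg2, Col6a3, Col15a1 and Col4a5), against 2.53% of the genes with an adjusted p.

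None of the 11 laminin chains, 8 of which had an adjusted p, was called, and 8 of the 11 were below 0. Lamb1 (−0.21, SE 0.06, adjusted p 0.0231) and Lamc1 (−0.23, SE 0.07, adjusted p 0.0406) passed the adjusted p alone. Lamb1 had 4732, 4985, 5501, 4972 and 5055 normalized counts in controls and 4386, 4119, 3910.0, 4851 and 4485 in iSOD2 mice, and Lamc1, the gamma chain that nearly every laminin shares, had 9269.9, 10142, 12223, 11031 and 10057 and 9489, 8832, 8421, 9615 and 8742. In both, the lowest heart was iSOD2 8 and the highest control 3.

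Lama5 had 5173 ± 397 and 4199 ± 796 normalized counts, a log2FC of −0.30 (SE 0.11, adjusted p 0.0856). Its iSOD2 values of 5013, 4946, 3146, 4138 and 3752 were split, with mice 5 and 7 inside the control range of 4689 to 5699 and mice 8, 9 and 10 below it. Lama2 had 12435 ± 899 and 11241 ± 1178 normalized counts (−0.15, adjusted p 0.265) and Lamb2 12744 ± 841 and 11695 ± 815 (−0.12, adjusted p 0.244). Lama4 had a log2FC of −0.11 (adjusted p 0.416). Lama3, a chain of the laminin of epithelial anchoring, had −0.23 (adjusted p 0.249).

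No collagen of the remaining classes was called, but few could be. An adjusted p was given to 2 of 8 FACIT, 1 of 4 network and anchoring, 0 of 4 transmembrane and 0 of 2 other collagens. Of the FACIT collagens, which sit on the surface of fibrils, Col14a1 had 1241 ± 241 and 1201 ± 287 normalized counts (−0.05, adjusted p 0.927) and Col12a1 −0.08 on the log2 scale. Col8a1, a network collagen of vessel walls, had 929.6 ± 142 and 841 ± 122 (−0.14, adjusted p 0.513). Col10a1, known from hypertrophic cartilage, had −0.19, and Col17a1, a transmembrane collagen of epithelial anchors, −0.01. Col12a1, Col10a1 and Col17a1 had no adjusted p, so they could not be called.

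DESeq2 gave no adjusted p to 24 members, whose means reached 149 normalized counts. Of these, 11 were lower, with log2FC values from −0.84 to 0.53 and a smallest unadjusted p of 0.0612. The 18 tested members with a mean under 50 had means of 3.14 to 48.8, and 8 of them were lower. The most abundant of them, Col11a2, had 45.7 ± 7.60 and 51.9 ± 13.6 normalized counts.

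Partner and alternative chains were compared within each heart as the ratio of their levels per kb, which does not depend on the depth of a library. The ratio of Col4a1 to Col4a2 was 1.35, 1.37, 1.47, 1.52 and 1.42 in controls and 1.53, 1.42, 1.46, 1.61 and 1.57 in iSOD2 mice. The difference of 0.09 on the log2 scale was within the spread between mice (two-sided exact permutation p 0.111). The ratio of Col6a1 to Col6a2 was 1.31, 1.36, 1.18, 1.24 and 1.28 in controls and 1.38, 1.40, 1.31, 1.41 and 1.50 in iSOD2 mice, higher by 0.14 on the log2 scale. Its exact permutation p of 0.0159 became 0.0635 after Benjamini-Hochberg adjustment over the 4 ratios, and the difference was 0.02 in litter A and 0.21 in litter B. Lamb1 to Lamb2 (−0.09, exact permutation p 0.333) and Nid1 to Nid2 (−0.12, exact permutation p 0.421) also did not differ beyond their spread.

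Genes that fold, process, cross-link or bind these proteins were read from a list of 68. All had at least 10 counts summed over the libraries, and 50 had an adjusted p. None of the 50 was called between the genotypes, against 1.70% of all genes called lower and 1.27% higher. Of the 68, 36 were below 0 and the median was −0.01. Among the receptors, Dag1, which encodes dystroglycan, came nearest with a log2FC of −0.22 (DESeq2 adjusted p 0.0577), beside Itga11 (−0.33) and Itga3 (−0.13). Of the genes for folding and modification of the chains, Fkbp10 had −0.13, Crtap 0.13 and Colgalt2 0.11. Of those for processing and cross-linking, Lox had −0.35, Adamts14 −0.35 and Adamts2 −0.22, and of other basement membrane proteins Tinagl1 had 0.26, Fn1 −0.24 and Smoc1 0.21. For the fibrillar chains left out of the members, Col1a1, which the hairpin cassette modifies, had −0.55 (adjusted p 8.58e-05), Col1a2 −0.18 (adjusted p 0.274) and Col3a1 −0.13 (adjusted p 0.575).

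Marker genes of the cell types that a heart section could hold were read beside the members. Of 8 fibroblast genes 6 had a log2FC above 0 and 0 were called (median 0.12), and their summed level was 12890 to 15842 normalized counts per kb in controls and 14406 to 17189 in iSOD2 hearts. Of 8 endothelial genes 6 were above 0 and 0 were called (median 0.02), with sums of 5845 to 7429 and 6355 to 7331. Of 8 smooth muscle and pericyte genes Tagln (0.40) and Myh11 (0.28) were called higher and Cspg4 (−0.28) lower. Cardiomyocyte genes had a median of 0.03 with 0 of 8 called. All 10 hepatocyte genes were above 0 (median 1.17) with 1 called, Apoa2 (0.85). All 6 erythroid genes were below 0 with 0 called (median −0.38), and 1 of the 7 macrophage genes tested was above 0 with 0 called (median −0.20). Epicardial and mesothelial genes (median 0.30, 5 of 7 above 0), Schwann cell genes (0.04, 3 of 6), cartilage genes (0.44, 3 of 5) and skeletal muscle genes (0.23, 6 of 7) had 0 called. The part of these in the members' differences was not tested.

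Exon length moved with the result. The members are long, with a median of 6230 bp and a range of 2712 to 14078, against 2646 for all genes tested. Over genes with a mean of at least 50, each library's deviation from the mean of all libraries was set against length. The slope averaged 0.0334 ± 0.0175 in controls and −0.0334 ± 0.0142 in iSOD2 hearts (log2 units per doubling of length, SD, n = 5 each). Deviations from a shared mean make the group means mirror each other, so only their difference is a result. Its exact permutation p was 0.00794, the smallest this design can give. The log2FC and length had a Spearman rho of −0.36 over the 35 members and −0.47 over the 12151 genes, all from the same libraries.

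With this trend removed from each library, 49 members had an adjusted p. Of these, 4 were called lower, Hspg2, Col6a3, Col5a1 and Col15a1, against 0.488% of genes. The median of the members tested was −0.09. Hspg2 had a log2FC of −0.46 (adjusted p 0.000125), Col15a1 −0.33 (0.016), Col5a1 −0.31 (0.0243) and Col6a3 −0.26 (0.0129). Lamb1 (adjusted p 0.296), Lamc1 (0.46) and Col4a5 (0.537) no longer passed. With the trend of GC content removed as well, Hspg2 alone was called (−0.42), against 0.437% of genes, and Col15a1, Col6a3 and Col5a1 had adjusted p values of 0.0578, 0.0681 and 0.116.

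**Figure D4:**
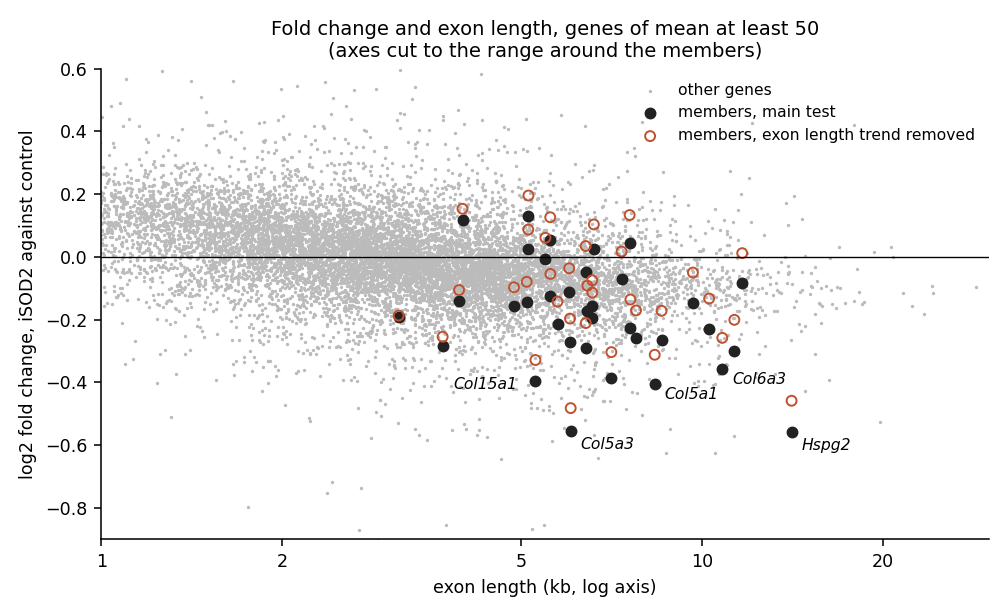
Log2FC of iSOD2 against control hearts against exon length in kb (log axis) for genes averaging at least 50 normalized counts, with grey points for 11174 other genes inside the axes (942 lie outside them), black points for the 35 members in the main test and open red points for the same members with the exon length trend removed. Hspg2 is the longest member at 14078 bp, and its point moves from −0.56 to −0.46.

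The calls also rested on the test. With edgeR quasi-likelihood 0 members were called, against 0% of all genes, and the lowest adjusted p of a member was 0.0664. At an unadjusted p under 0.05 edgeR had 16 members lower, against 6.77% of genes. With litter as a covariate DESeq2 also called Col4a2 and Col4a3 and no longer Col5a3. That fit called 326 of all genes, against 281 in the main fit. Among the mice of litter A DESeq2 called 6 members lower, Hspg2, Col5a1 and Col5a3 together with Col4a2, Lamb1 and Nid1, against 1.76% of genes. In litter B it called 5, all from the 6 of the main comparison and without Col5a3, against 0.220% of genes. In females it called 5, without Col6a2, against 0.0867% of genes, and in males Hspg2 alone, against 1.77%. Members with an adjusted p numbered 22 in litter A, 45 in litter B, 49 in females and 22 in males. Hspg2 and Col5a1 were thus called in either litter, and all 6 had a log2FC below 0 in both litters and both sexes. The 6 were picked as lower over these same mice, so their direction in parts of them is no separate evidence. P-values here set a difference against the spread between these mice. In the main fit, which has no term for litter, that spread includes differences between the litters.

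Litter was compared next, with genotype as a covariate, because each genotype had mice of both. In the 6 mice of litter B, 7 members were called higher and 0 lower than in the 4 of litter A, against 2.52% of genes higher and 0.977% lower. They were Col4a1, Nid2, Col18a1, Col5a2, Col28a1, Col4a3 and Col8a1. With Col4a2 and Lama4, whose fold changes were under 0.25, 9 of 52 members passed at any fold, against 2.87% of genes. None of the 6 members called between the genotypes was among them. The summed levels of 3 lists of marker genes also differed between the litters, and those of the other lists overlapped. The summed level of endothelial genes was 5845 to 6671 normalized counts per kb in litter A and 6710.1 to 7429 in litter B, that of smooth muscle and pericyte genes 7744 to 8201 and 8657 to 10337, and that of cardiomyocyte genes 800825 to 856997 and 745201 to 786074, with no overlap in these 3. Of the single genes of these 3 lists, 1 of 8, 1 of 8 and 0 of 8 were called between litters. The median log2FC between litters was 0.12, −0.04 and −0.12 over the genes of these lists, 0.01 for fibroblast genes and 1.16 for hepatocyte genes. The part of the marker genes in the litter differences was not tested.

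Col4a1 had 17294, 17077, 15377 and 13968 normalized counts in control 1, control 2, iSOD2 7 and iSOD2 8 of litter A. It had 22862, 19309.5, 22996, 16745, 21312 and 19568 in controls 3, 4 and 6 and iSOD2 mice 5, 9 and 10 of litter B, so only iSOD2 5 reached down into litter A. The log2FC was 0.36 (SE 0.07, DESeq2 adjusted p 8.53e-05). Nid2 had 839, 797, 690.0 and 777 in litter A and 1179, 998, 969, 841, 976 and 1005 in litter B, with no overlap (0.36, SE 0.08, adjusted p 0.000594), the single member of 52 to do so in this direction, against 2.55% of genes. The antisense gene Rtraf overlaps 8.96% of the exon bases of Nid2, and whether reads were counted by strand is not given in the sources used here.

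Col18a1 had 402 ± 67.7 normalized counts in litter A and 548 ± 71.5 in litter B (0.45, SE 0.12, adjusted p 0.00952). Col28a1, a scarce collagen of peripheral nerve, had 23.3 ± 8.24 and 43.6 ± 12.1 (0.90, SE 0.27, adjusted p 0.0233). Of the 10 fits that left out a mouse, Col28a1 was called in only 4 and Col18a1 in 8, and neither was called under edgeR. Col5a2 (0.26, adjusted p 0.0148), Col4a3 (0.26, 0.0362) and Col8a1 (0.28, 0.0459) were nearer the fold threshold. Their calls were lost in 5, 8 and 6 of these 10 fits. Col4a2 rose by less (0.24, SE 0.08, adjusted p 0.0366), and the ratio of Col4a1 to Col4a2 was higher in litter B by 0.12 on the log2 scale (exact permutation p 0.0143, adjusted 0.0286). The ratio of Lamb1 to Lamb2 was higher by 0.25 (exact permutation p 0.00952, adjusted 0.0286). Hspg2, with the lowest adjusted p between genotypes, had 16679 ± 3706 in litter A and 16479 ± 4167 in litter B (−0.02, adjusted p 0.958). Of the 68 related genes 8 were called higher in litter B, Sparc, Ntn1, Smoc2, Loxl2, Fn1, Papln, Itga6 and Pxdn, and Frem2 and Fbln1 lower. Litter A held 3 males and 1 female, and litter B 2 males and 4 females. With sex as a further covariate 7 members were again called, without Col4a3 (adjusted p 0.108) and Col8a1 (adjusted p 0.121) and with Col4a2 and Nid1. Differences in dam or handling are not given in the labels and cannot be told apart from litter.

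**Figure D5:**
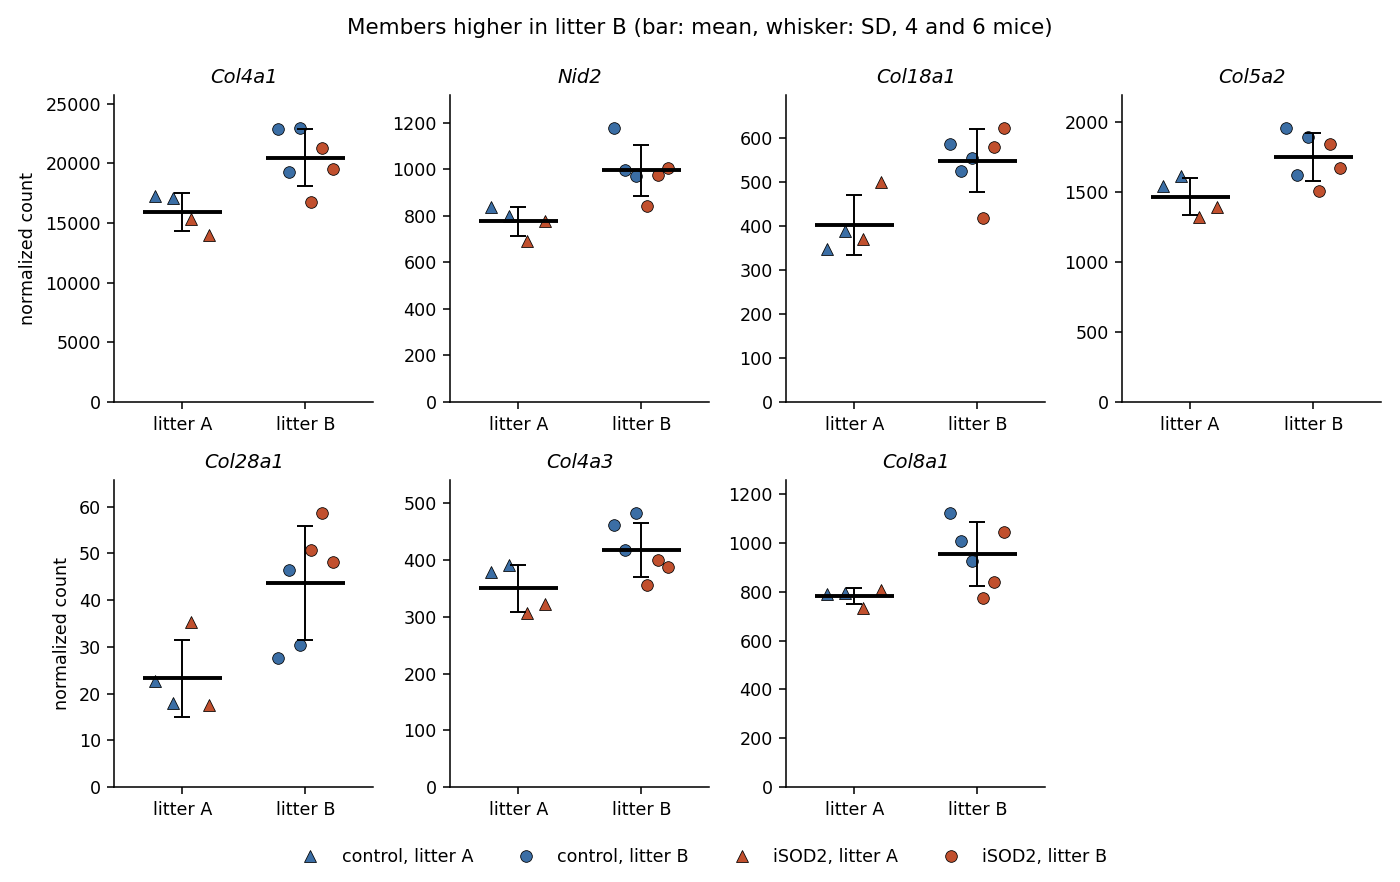
Normalized counts (vertical axes from 0) of the 7 members called higher in litter B, with a point for each mouse, a bar for the mean and whiskers for the SD of 4 mice in litter A and 6 in litter B. For Nid2 every litter B point lies above every litter A point, and for Col4a1 all but iSOD2 5 do.

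Sex was compared with genotype as a covariate, and 2 members were called. Col14a1 was higher in females, with 1563, 1377, 1064, 1549 and 1457 normalized counts in controls 4 and 6 and iSOD2 mice 5, 8 and 10, and 1044, 973, 1249, 884 and 1049 in the males, controls 1, 2 and 3 and iSOD2 mice 7 and 9. The female iSOD2 5 lay below the male control 3, the only overlap, and the log2FC was 0.46 (SE 0.11, DESeq2 adjusted p 0.00805). Col6a6 was lower in females, with 361, 502, 341, 416 and 317 against 632, 779, 519, 508 and 556 in the males and no overlap (−0.57, SE 0.13, adjusted p 0.00288). Of 17379 genes, 171 were likewise wholly lower in females and 139 wholly higher. Col27a1, which was not called (DESeq2 adjusted p 0.179), was wholly higher in females, at 151 to 184 normalized counts against 120 to 140 in males. Over all genes 0.207% were called higher and 0.213% lower in females. Lama2 had an adjusted p of 0.0401 at a fold change under the threshold (−0.20). No member was called for an interaction of genotype with sex (DESeq2, 0 genes called in all), and Col5a3 alone had an unadjusted p under 0.05 (0.0134, a log2FC of −0.23 in males and −0.83 in females), against 1.18% of genes.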

How the data were processed

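Total RNA of 10 hearts was depleted of ribosomal RNA and sequenced as stranded libraries. The authors trimmed reads with Trim Galore, aligned them to mm10 with STAR and counted exons with HOMER, condensed to 1 transcript per gene. The deposited values are raw estimated counts, all multiples of 0.5, and were rounded to whole numbers here. No strand option of the counting is given in the sources used here, so reads of antisense neighbours cannot be told apart. The deposited exon length in bp is another column. Columns of samples not used numbered 0.

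Genes with a sum of at least 10 counts (17728) were fitted with DESeq2 1.42.0 (R 4.3.3), the study's tool, with genotype alone, or with sex or litter added to it. Calls needed a Benjamini-Hochberg adjusted p no higher than 0.05 across the whole table and a log2 fold change beyond 0.25. DESeq2 gives no adjusted p to genes its independent filter leaves out. Normalized counts are counts divided by DESeq2 size factors. Ratios were compared by two-sided exact permutation tests (SciPy 1.17.1). Alternatives were edgeR 4.0.16, limma 3.58.1 voom, TMM and upper-quartile scaling, other filters, covariates, single litters or sexes, removal of length and GC trends (splines with 4 degrees of freedom), and leaving out each mouse. The length trend was removed by offsets per library. The plain DESeq2, edgeR and voom fits were tried on simulated counts with known folds and no litter, sex or length effects. The other steps were not tested in this way. Libraries held 16448090.5 to 24263085.5 counts over genes, and the lowest chi-square per degree of freedom over the 45 pairs of libraries was 5.71.

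Named genes were the called members, the main heart basement membrane chains with the chains of collagens V and VI and Col8a1, and in each class up to 2 more members averaging at least 50 normalized counts, with the largest fold changes. For scarcer members the highest was named. For sex, litter and interaction the called members were named, or else the 3 with the largest fold changes, and of each related list the called genes and up to 3 others with the largest fold changes at a mean of 50 or more. Col1a1, Col1a2, Col3a1 and Sod2 were added. Col4a5, Col4a6, Lama1, the interaction value of Col5a3, the sex values of Col27a1, called markers and neighbouring genes were named after their values were seen. The members and lists were chosen with earlier results of these data known, and the tests of ratios and the calls of related genes between litters were added after seeing the data. 1 gene is not reported here by name. Promoter windows were taken from RefSeq.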

Additional observations from a re-analysis of the deposited data

Results flagged for a closer look

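Of 70 groups of 5 mice looked at for a single mouse far from the others, 3 stood out, and chance alone gives about 3.5 at 1 group in 20. Col5a1 had 3478 normalized counts in control 3, while the other controls lay between 2575 and 2835. It also had 2579 in iSOD2 9, while the other iSOD2 mice lay between 1970.0 and 2114. Lama3 had 299 in control 6, while the other controls lay between 212 and 229. Col5a1 was called without either of these mice.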

How the results depend on the processing

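For genotype, 6 members were called. Under edgeR and under limma voom the count was 0, with 16 members at an unadjusted p under 0.05 under each tool. All of these were lower, against 1201 of 17728 genes lower under edgeR and 1222 under voom. It was 1 with the length and GC trends removed and 1 in males only. Without each mouse in turn it ran from 4 to 10, the highest without iSOD2 9, when Col4a2, Col4a4, Lamb1 and Nid1 were also called. Hspg2, Col5a1, Col6a3 and Col15a1 were called in every fit that left out 1 mouse. Of related genes 0 were called, and 0 to 1 without each mouse (Tinagl1 without control 4, Dag1 without iSOD2 5). For sex, 2 members were called, 0 under edgeR, and 0 to 3 without each mouse, with 0 without control 4 and 1 without iSOD2 7. For litter, 7 were called, 3 under edgeR, 4 with the length trend removed, and 2 to 8 without each mouse, with 2 without control 1 and 4 when control 3, iSOD2 7 or iSOD2 10 was left out. Col4a1 and Nid2 were called in each of these litter alternatives. How many of all genes the sex and litter alternatives called was not counted, so their member counts have no such share beside them. For the interaction, 0 were called and 0 to 1 without each mouse (Col5a3 without control 4). The genotype difference in log2 ratio Col6a1 to Col6a2 was 0.0234 in litter A and 0.21 in litter B, against 0.14 in all mice. The cause of these changes was not tested. Among all genes, 281 were called, 577 with no fold threshold, 0 under edgeR and voom, 114 with the length trend removed, 94 with GC removed too, 121 in litter A, 63 in litter B, 150 in males, 90 in females, and 166 to 492 without each mouse. No called member changed direction, and of the uncalled genes named in the text 11 changed sign in some alternative. No paired analysis was possible because control and iSOD2 mice share no replicate number. The litters, which both genotypes share, were fitted as a covariate instead, with 7 members called, Col4a2 and Col4a3 among them and Col5a3 not. Of all genes that fit called 326.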
